A study of Mus musculus with 35 samples.

Results

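Fibroblasts make the collagen framework of the dermis, and the comparison described here is between fibroblasts from the hind paw skin of male mice given paclitaxel (PTX), which is used against tumours and keeps microtubules from coming apart, and those of male mice given vehicle. The 8 male fibroblast libraries were chosen by their labels from the 35 libraries of the series, 4 of PTX males and 4 of vehicle males, and were compared across all 22609 gene symbols. The 4 fibroblast libraries of vehicle females entered the same fit and served as a further control group. All 12 came from C57 mice of 8 to 16 weeks that carried Col1a2-cre-ER and the tdTom reporter, so vehicle and PTX animals share both alleles. In this line the promoter of the collagen gene Col1a2 drives an inducible Cre and so the tdTom label, which any cell with an active promoter can carry. PTX was given by intraperitoneal injection at 2 mg/kg, as 2 injections a day apart, and skin of both hind paws was taken 6 days after the last one and turned into a single-cell suspension. PTX was given to males only. The labels do not say whether each library came from a separate mouse or from a pool, so p-values here reflect how far the samples of a group lie apart, and part of that spread may be technical.

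Fibrillar collagens are secreted as procollagen chains whose ends are cut off by dedicated proteases, and the trimmed molecules then assemble into fibrils and are cross-linked. Types I and III are the main fibrillar collagens of the dermis. Insulin-like growth factors (IGFs) reach cells in the company of IGF-binding proteins, secreted carriers that set how much ligand can reach the receptor. Igfbp3 is among the best known of these carriers and is made by many stromal cells.

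Of 10857 genes tested, 2 passed an adjusted p of 0.05 in PTX against vehicle males (edgeR quasi-likelihood F-test, Benjamini-Hochberg adjustment), which is 0.0184% of the genes. Igfbp3 rose and Col3a1, the chain of type III collagen, fell. In all, 876 genes, 8.07%, had an unadjusted p under 0.05, with 303 (2.79%) higher and 573 (5.28%) lower in PTX males. In 347 genes (3.2%) the 4 PTX libraries and the 4 vehicle libraries did not overlap, with PTX higher in 150 (1.38%) and lower in 197 (1.81%). The log2 fold change was above 0 in 52.3% of all genes. Relative log expression (RLE) scaling moved the median fold change of all genes from 0.08 to 0.24 on the log2 scale, and changed the share of higher genes among those with an unadjusted p under 0.05 from 34.6% to 45.0% (434 higher and 531 lower), while with no scaling factors it was 33.6%.

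Sequences before the start sites are shown for Igfbp3 and Col3a1, which passed, and for Col1a2, which did not. Col1a2 is the gene whose promoter drives the Cre of this line. The sequences let base composition and core promoter motifs be seen beside the levels below. Each is the 250 bases upstream of the gene's start in RefSeq's GRCm38.p6 annotation, a later build than the mm9 used for the counts. They lie at chr11:7213924-7214173 on the minus strand for Igfbp3, at chr1:45311288-45311537 on the plus strand for Col3a1 and at chr6:4505368-4505617 on the plus strand for Col1a2. Capitals mark every match, on either strand, to the TATA-like motifs TATAAA and TATATA, the CCAAT box and the GC box GGGCGG, and no match overlapped another.
Igfbp3: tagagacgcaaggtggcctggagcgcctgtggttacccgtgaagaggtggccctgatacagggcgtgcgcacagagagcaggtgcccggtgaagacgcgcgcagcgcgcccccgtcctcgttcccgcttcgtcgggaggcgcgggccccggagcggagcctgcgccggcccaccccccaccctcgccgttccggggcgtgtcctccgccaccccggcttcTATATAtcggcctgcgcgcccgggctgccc
Col3a1: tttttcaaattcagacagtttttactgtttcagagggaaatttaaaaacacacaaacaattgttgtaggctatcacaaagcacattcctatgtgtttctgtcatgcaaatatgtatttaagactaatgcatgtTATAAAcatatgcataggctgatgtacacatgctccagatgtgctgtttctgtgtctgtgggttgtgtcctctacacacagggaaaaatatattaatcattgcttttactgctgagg
Col1a2: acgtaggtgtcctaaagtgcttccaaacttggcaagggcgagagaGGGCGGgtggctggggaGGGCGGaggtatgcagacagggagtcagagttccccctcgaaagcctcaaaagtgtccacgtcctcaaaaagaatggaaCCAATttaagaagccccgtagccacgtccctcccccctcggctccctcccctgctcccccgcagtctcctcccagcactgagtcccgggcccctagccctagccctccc
The Igfbp3 window was 73.2% G and C, with TATATA beginning 30 bases before the start. The Col3a1 window was 35.2% G and C, with TATAAA beginning 117 bases before the start. In the Col1a2 window, 62.0% G and C, GGGCGG began 205 and 188 bases before the start and CCAAT began 109 bases before it. Among 32851 promoter windows of the same length, 12.4% held TATAAA, 5.25% TATATA, 33.8% CCAAT and 32.7% GGGCGG. The 2 genes called in opposite directions thus differed widely in base composition, and these matches are descriptions of letters, not of bound sites.

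The libraries held 13359088 to 20809036 reads counted in genes. Genes with more than 10 counts numbered 7010 to 10089 per vehicle male library, 5360 to 9532 per PTX library and 9502 to 10724 per vehicle female library. Reads without a unique place made up 34.9 to 37.0% in vehicle males and 37.4 to 47.7% in PTX males, so this share was higher in every PTX library, and its part in the results was not tested. Spearman correlations between libraries, over tested genes, had medians of 0.561 to 0.633 for vehicle male libraries against the others of their group and of 0.522 to 0.567 for PTX libraries. Over all pairs the median was 0.5937 within vehicle males, 0.5395 within PTX males and 0.5563 between PTX and vehicle males. PTX libraries were thus about as close to vehicle male libraries as to each other. The spread depended on the level: the median standard deviation within groups was 0.507 on the log2 scale for the 106 genes over 1000 CPM (read counts relative to the TMM-scaled library size), 0.675 for the 643 genes of 200 to 1000 CPM, 2.19 for the 5960 genes of 20 to 200 CPM and 1.96 for the 4148 genes under 20 CPM. Of the genes of 20 to 200 CPM, 31.0% had 3 counts or fewer in at least 1 PTX library and 18.8% in at least 1 vehicle male library. In PTX against vehicle males, 534 genes under 20 CPM and 248 of 20 to 200 CPM had an unadjusted p under 0.05 (edgeR's F-test). The same p was reached by 68 genes of 200 to 1000 CPM and 26 over 1000 CPM. From the lowest level to the highest, 2.07%, 3.47%, 6.69% and 10.4% of genes did not overlap between the groups. Of those over 1000 CPM, 1 was higher and 10 were lower. Shares over all genes thus understate those of the abundant genes.

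**Figure D1:**
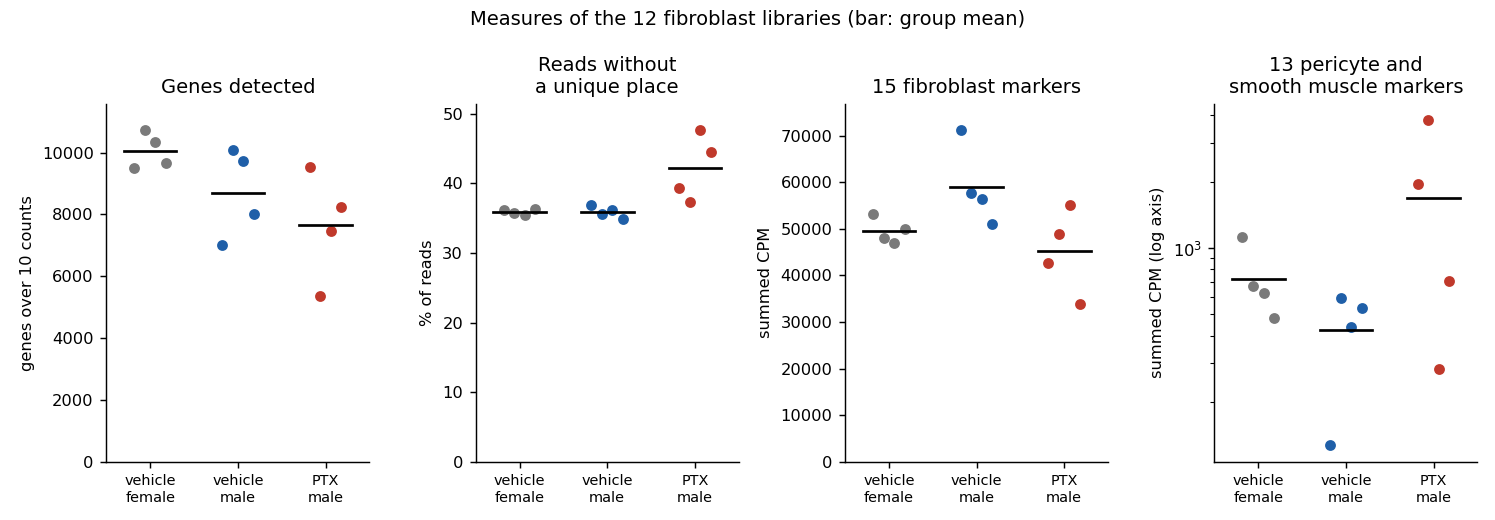
Each point is 1 library, grouped as vehicle females, vehicle males and PTX males, and bars are group means. The panels give genes with more than 10 counts, the percentage of reads without a unique place, the summed CPM of 15 fibroblast markers, and, on a log axis, the summed CPM of 13 pericyte and smooth muscle markers, which reached 3805 in PTX male 2 and lay at 283 in PTX male 3.

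The sorted cells carried fibroblast markers in every library. Dcn, which encodes the small collagen-binding proteoglycan decorin, was at 37310, 23560, 25450 and 25080 CPM in the 4 vehicle males and at 22160, 29230, 38890 and 19160 CPM in the PTX males. The groups overlapped, and the log2 fold change of -0.03 ± 0.19 (SE) had an adjusted p of 0.997 and turned positive under RLE scaling. Pdgfra, the receptor for platelet-derived growth factor A, was at 1154, 808, 878 and 868 CPM in vehicle males and at 509, 703, 418 and 755 CPM in PTX males. Every PTX library lay below every vehicle male library, yet the adjusted p was 0.531 and the vehicle females, at 460 to 704 CPM, lay within the PTX range. Cd34, a sialomucin of many dermal fibroblasts, was at 1994 to 2896 CPM in vehicle males and 1077 to 2062 CPM in PTX males, with an adjusted p of 0.468. Over the 15 fibroblast markers, 5 had an unadjusted p under 0.05, all lower, where 5.28% of all genes tested were lower at that p. In either direction, 26 of 106 genes over 1000 CPM reached it. Of the 15, 12 had a log2 fold change below 0, and the median of the list was -0.21 against 0.08 for all genes tested. Under RLE scaling that median was 0.04, so the direction of the list depends on the scaling. Their summed level was 51090 to 71170 CPM in vehicle males and 33860 to 55090 CPM in PTX males.

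Igfbp3 stood at 109, 147, 69.5 and 117 CPM in the 4 vehicle males. The 4 PTX males were at 761, 1092, 496 and 993 CPM. Every PTX library therefore exceeded every vehicle male library, with a wide gap between the groups. The log2 fold change was 2.92 ± 0.39 (SE, n = 4 in each group) with an adjusted p of 0.00782 in edgeR's test. Vehicle females, at 358, 321, 170 and 238 CPM, lay above every vehicle male and below every PTX male. The direction held in all 21 alternative settings, with log2 fold changes of 2.13 to 3.15. The call was lost in 5 of them: the adjusted p was 0.0505 with limma's voom weights, 0.0943 with vehicle males and females together as the controls, 0.0553 without vehicle male 1, 0.0623 without vehicle male 3 and 0.125 without vehicle male 1 and PTX male 2, the libraries with the fewest genes over 10 counts in their groups.

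**Figure D2:**
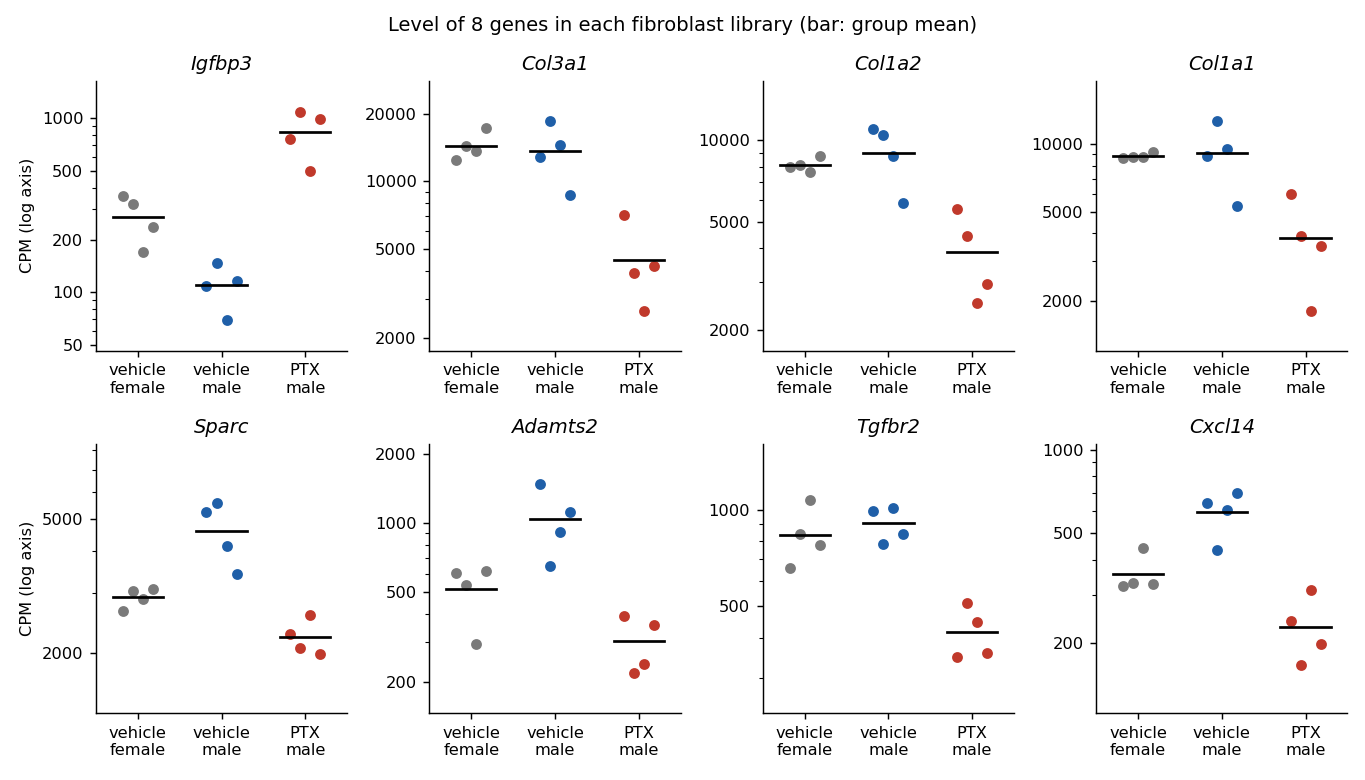
CPM on log axes of Igfbp3, Col3a1, Col1a2, Col1a1, Sparc, Adamts2, Tgfbr2 and Cxcl14, 1 point per library and a bar at each group mean. PTX males lie above both vehicle groups for Igfbp3 (496 to 1092 CPM against 69.5 to 358) and below both for Col3a1 (2647 to 7074 CPM against 8742 to 18650).

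No other IGF-binding protein gene passed the test. Igfbp5, a carrier that also binds matrix, was at 349, 258, 397 and 315 CPM in vehicle males and 425, 1361, 554 and 422 CPM in PTX males. These groups did not overlap, and the log2 fold change of 1.07 ± 0.40 had an adjusted p of 0.474. PTX male 2 supplied the highest value by a wide margin, and vehicle females, at 307 to 787 CPM, overlapped the PTX range. Igfbp7, a carrier-related protein of vessels and stroma, was at 1361 to 2726 CPM in vehicle males and 707 to 1697 CPM in PTX males (log2 fold change -0.42 ± 0.33, adjusted p = 0.922). Igfbp4 and Igfbp6, with means over 1000 CPM in both groups, had log2 fold changes of -0.23 and 0.30.

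Of the ligands, Igf1 was at 1668, 1137, 899 and 1018 CPM in vehicle males and 592, 871, 700 and 611 CPM in PTX males. All 4 PTX libraries were below all 4 vehicle male libraries, with a log2 fold change of -0.77 ± 0.26 and an adjusted p of 0.468. Igf2 spread from 13.9 to 272 CPM in vehicle males and from 59.8 to 599 CPM in PTX males, so the groups overlapped (1.83 ± 0.81, adjusted p = 0.534). The receptors Igf1r and Igf2r had log2 fold changes of 1.55 and -1.38, with unadjusted p of 0.16 and 0.093. Of the 20 genes of the IGF axis, 17 passed the filter on low counts, and Igfbp1, Igfals and Pappa2 did not. An unadjusted p under 0.05 was reached by 3 of the 17 with PTX higher (Igfbp3, Igfbp5 and Igf2) and by 1 with PTX lower (Igf1). Over all genes, 2.79% were higher and 5.28% lower at that p. The median log2 fold change of the 17 was 0.30.

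Col3a1 was at 12780, 18650, 14480 and 8742 CPM in vehicle males and at 7074, 3914, 2647 and 4189 CPM in PTX males. No PTX library reached the lowest vehicle library. It fell by 1.62 ± 0.26 on the log2 scale, with an adjusted p of 0.0359 in edgeR's test. Its level in vehicle females was 12460, 14310, 13610 and 17320 CPM, close to that of vehicle males. The direction held in all 21 alternatives, with log2 fold changes of -1.94 to -1.43, and the call was lost in 15 of them. Those include RLE scaling (adjusted p = 0.184), DESeq2 (0.0621), the fit on the 8 male libraries alone (0.0977), and the fits without vehicle male 1 (0.184), 2 (0.113) or 3 (0.101) or PTX male 2 (0.228), 3 (0.0895) or 4 (0.223).

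The type I collagen chains gave values in the same direction without passing the test. Col1a2 was at 11000, 10460, 8714 and 5850 CPM in vehicle males and 5588, 4449, 2522 and 2965 CPM in PTX males. The groups did not overlap, though vehicle male 4 and PTX male 1 were close, and the log2 fold change was -1.22 ± 0.24 with an adjusted p of 0.106. It passed without vehicle male 4 (adjusted p = 0.0197) and without PTX male 1 (0.0246). Col1a2 is also the gene whose promoter drives the Cre of this line. Col1a1, the other chain of type I collagen, was at 8802, 12720, 9539 and 5323 CPM in vehicle males and 5982, 3893, 1802 and 3518 CPM in PTX males. Here PTX male 1 lay above vehicle male 4, and the log2 fold change of -1.26 ± 0.28 had an adjusted p of 0.228. In bulk samples such as these, fewer collagen-making cells and less collagen RNA per cell cannot be told apart.

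Type V collagen, which sits in the core of type I fibrils, was not uniform. Col5a1 was at 379, 643, 577 and 714 CPM in vehicle males and 380, 135, 433 and 241 CPM in PTX males, an overlap with a log2 fold change of -0.96 ± 0.36 and an adjusted p of 0.474. Col5a2 was at 964 to 1437 CPM in vehicle males and 500 to 2895 CPM in PTX males, where PTX male 2 alone exceeded the vehicle range. Its log2 fold change was 0.0035 ± 0.41, with a sign that turned in 13 of 21 alternatives. Of 11 fibrillar collagen genes, 10 were tested and Col2a1, the cartilage collagen, had no count in any library. Among the 10, 7 had a log2 fold change below 0 and the median was -1.07 (-0.83 under RLE scaling). An unadjusted p under 0.05 was reached by 4, all lower (Col3a1, Col1a2, Col1a1 and Col5a1), where 5.28% of all genes were lower at that p. Col11a2, Col24a1 and Col11a1 averaged 33.5 CPM or less in both groups, and the standard errors of their fold changes were wide. The summed level of the 11 genes was 22120 to 44120 CPM in vehicle males and 8104 to 20120 CPM in PTX males, without overlap. Most of that sum came from Col3a1, Col1a1 and Col1a2, so it is not a separate result about the other members.

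**Figure D3:**
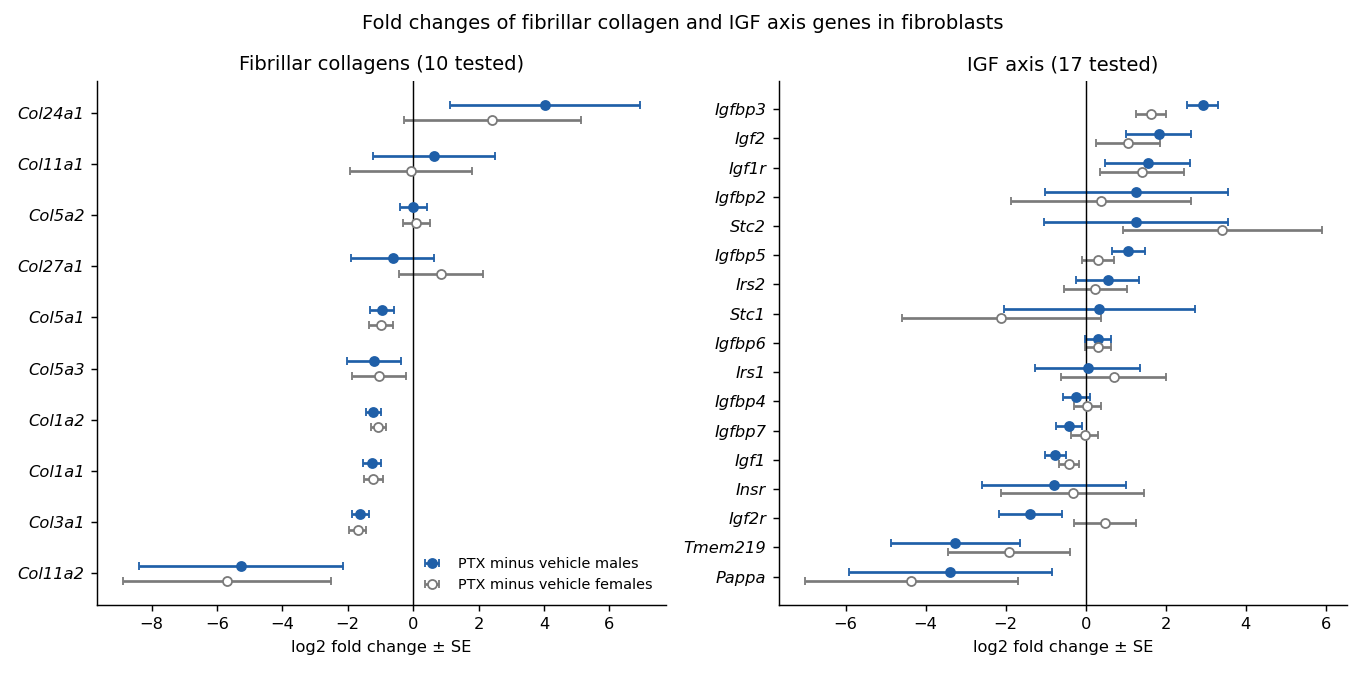
Log2 fold changes with standard errors of 10 fibrillar collagen genes and 17 genes of the IGF axis, PTX males against vehicle males (filled) and against vehicle females (open). Igfbp3 lies at 2.92 and 1.62, Col3a1 at -1.62 and -1.70, and the widest bars belong to genes with few counts such as Col11a2 and Pappa.

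Among genes that process and cross-link collagen, Adamts2, the protease that trims the amino end of procollagens, was at 1482, 649, 912 and 1118 CPM in vehicle males and 393, 219, 241 and 356 CPM in PTX males. The groups were well apart, and the log2 fold change of -1.78 ± 0.35 had an adjusted p of 0.106. Pcolce, which speeds the trimming of the carboxyl end, was at 1216, 1712, 1206 and 2085 CPM in vehicle males and 933, 832, 982 and 942 CPM in PTX males. PTX libraries lay within a narrow band below every vehicle male library (-0.75 ± 0.24, adjusted p = 0.468). P4hb, a subunit of prolyl 4-hydroxylase and a disulfide isomerase, was at 892 to 1960 CPM in vehicle males and 711 to 834 CPM in PTX males (-0.62 ± 0.27, adjusted p = 0.526). Over the list of collagen synthesis and cross-linking genes, 25 of 27 were tested and 20 of them had a log2 fold change below 0, with a median of -0.44 (-0.22 under RLE scaling). Of the 25, 5 had an unadjusted p under 0.05, all lower: Adamts2, Pcolce, P4hb and the lysyl oxidase-like cross-linking genes Loxl2 and Loxl4. Over all genes tested, 5.28% were lower at that p. In either direction it was reached by 26 of 106 genes over 1000 CPM and 68 of 643 of 200 to 1000 CPM. The summed level of the list was 7488 to 8776 CPM in vehicle males and 5113 to 5580 CPM in PTX males. Vehicle females, at 5886 to 6817 CPM, lay between the male groups.

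Collagen-binding glycoproteins gave further low p-values. Sparc, a matricellular protein that binds collagen, was at 5241, 5582, 4163 and 3427 CPM in vehicle males and 2277, 2060, 2589 and 1977 CPM in PTX males. Its log2 fold change of -1.05 ± 0.19 had an adjusted p of 0.106, with no overlap. Vehicle females, at 2668 to 3103 CPM, lay below every vehicle male and just above the PTX males. Fbln2, an elastic fibre and basement membrane glycoprotein, was at 2217 to 3754 CPM in vehicle males and 629 to 1806 CPM in PTX males (-1.04 ± 0.29, adjusted p = 0.468). Col6a1, a chain of the beaded filament collagen type VI, was at 2639 to 3309 CPM in vehicle males and 814 to 2211 CPM in PTX males (-0.80 ± 0.25, adjusted p = 0.468). For both genes every PTX library was below every vehicle male library, and PTX male 3 was the lowest. Of 44 tested proteoglycans and glycoproteins, 27 had a log2 fold change below 0, with a median of -0.28 that was -0.01 under RLE scaling. An unadjusted p under 0.05 was reached by 6 lower genes, Fn1 (fibronectin) and Thbs3 (a thrombospondin) among them, and by 3 higher ones, Comp, Ltbp2 and Matn4. The shares over all genes at that p were 5.28% lower and 2.79% higher. The network and fibril-associated collagens were evenly split, with 8 above and 8 below 0.

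**Figure D4:**
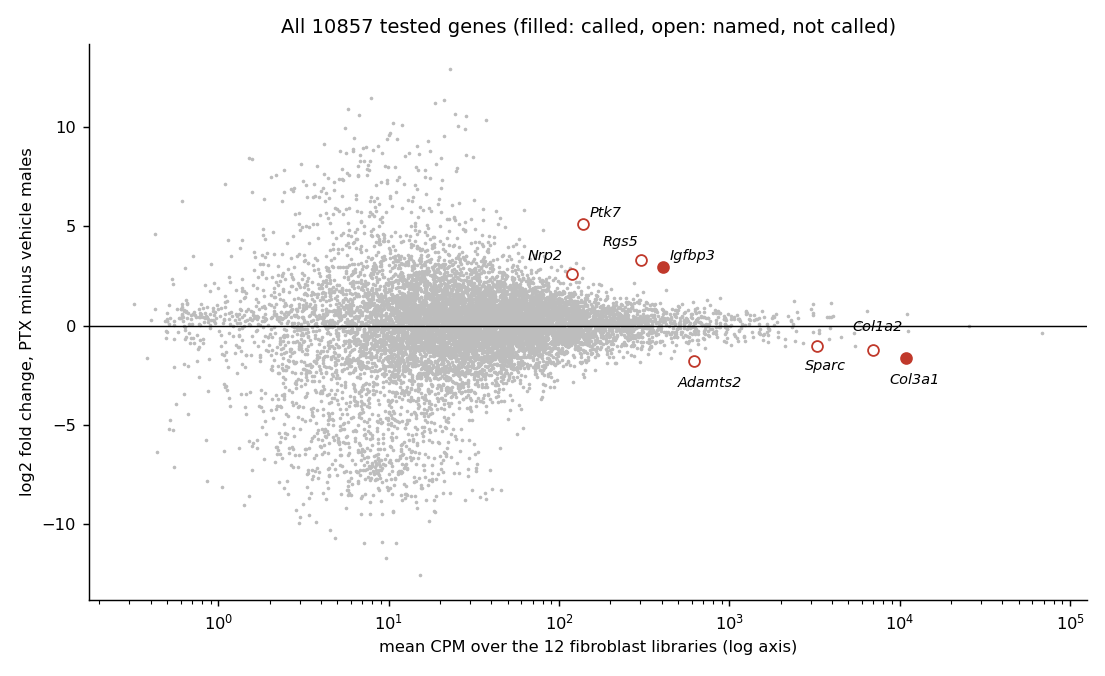
Mean CPM over the 12 fibroblast libraries (log axis) against the log2 fold change of PTX over vehicle males for all 10857 tested genes (grey). Filled red points are the 2 genes that passed, Igfbp3 and Col3a1, open ones are named genes that did not, and the cloud widens towards low levels.

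Among signalling genes, Tgfbr2, the ligand-binding receptor for TGF-beta, was at 991, 783, 1010 and 839 CPM in vehicle males and 349, 513, 446 and 359 CPM in PTX males. The highest PTX library was well below the lowest vehicle male library (-1.12 ± 0.27, adjusted p = 0.307), and vehicle females, at 659 to 1068 CPM, also lay above all PTX males. Among TGF-beta and BMP pathway genes, 33 of 36 were tested, with 20 above and 13 below 0. Tgfbr2 and Id1 were the members with an unadjusted p under 0.05. Id1, an inhibitor of basic helix-loop-helix factors and a common BMP target, was at 3.13, 30.3, 17.5 and 12.1 CPM in vehicle males and 38.2, 17.5, 216 and 209 CPM in PTX males, with overlap (2.93 ± 1.09, adjusted p = 0.469). Its relative Id3 was at 1036 to 2073 CPM and 1228 to 3001 CPM (0.51 ± 0.30, adjusted p = 0.793).

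Contractile genes mark myofibroblasts as well as pericytes and smooth muscle. Myl9, a myosin light chain, was at 68.3, 132, 123 and 0.575 CPM in vehicle males and 475, 346, 387 and 169 CPM in PTX males. The groups did not overlap (2.09 ± 0.87, adjusted p = 0.504), and neither did PTX males and vehicle females, at 69.1 to 125 CPM. Cyr61, a matricellular protein induced by mechanical load, was at 567 to 982 CPM in vehicle males and 1000 to 1304 CPM in PTX males (0.63 ± 0.27, adjusted p = 0.504). Acta2, smooth muscle actin, was at 2.60, 140, 105 and 150 CPM in vehicle males and 483, 566, 3.84 and 215 CPM in PTX males, an overlap made by PTX male 3. Cdh11, a mesenchymal cadherin, was at 52.9 to 148 CPM and 64.3 to 513 CPM (1.75 ± 0.62, adjusted p = 0.468). Of 15 tested genes of the list, 11 were above 0, and the median was 0.63 (0.94 under RLE scaling). An unadjusted p under 0.05 was reached by 4, all higher, where 2.79% of all genes were higher at that p.

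Several of these contractile genes are also pericyte genes, and pericyte markers were also higher in several PTX libraries. Rgs5, a regulator of G-protein signalling typical of pericytes, was at 61.9, 78.6, 61.2 and 71.7 CPM in vehicle males and 489, 1951, 82.0 and 161 CPM in PTX males (3.29 ± 0.75, adjusted p = 0.228). Mcam, an adhesion molecule of pericytes and endothelium, was at 0.0764, 0, 0 and 0 CPM in vehicle males and 4.81, 74.4, 0.480 and 22.8 CPM in PTX males, yet at 9.44 to 77.8 CPM in vehicle females. All 11 tested pericyte and smooth muscle markers had a log2 fold change above 0, with a median of 1.44. Of these, 2 had an unadjusted p under 0.05, Rgs5 and Mcam, where 2.79% of all genes were higher at that p. The summed level of the 13 markers was 127, 591, 441 and 534 CPM in vehicle males, 1942, 3805, 283 and 712 CPM in PTX males and 481 to 1126 CPM in vehicle females, and none of the 13 was at 0 in all 12 libraries. PTX male 3, whose pericyte sum lay within the vehicle male range, had Igfbp3 at 496 CPM and Col3a1 at 2647 CPM. Its Igfbp3 was above every vehicle male but the lowest of the PTX males, and its Col3a1 was the lowest of all. PTX male 2 had both the highest pericyte sum and the highest Igfbp3. The part of pericyte RNA in the contractile, Igfbp3 and Col3a1 results was not tested.

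Pan-immune and keratinocyte markers were low. Pan-immune markers summed to 15 to 74.9 CPM in vehicle males and 35.4 to 83.0 CPM in PTX males, and Cd3e, the T cell receptor component, was at 0.08 CPM or less in both. Keratinocyte markers summed to 36.9 to 68.3 and 5.04 to 50.4 CPM, with 4 of 19 at 0 in all 12 libraries and Krt5 at no more than 1.04 CPM. Other lists held some abundant genes. Endothelial markers summed to 373 to 654 CPM in vehicle males and 348 to 512 CPM in PTX males, mostly from Tek and Eng, with the endothelial cadherin gene Cdh5 at 0.048 CPM or less. Schwann cell and nerve markers summed to 1224 to 2107 and 1305 to 2645 CPM, mostly from Pmp22, with Sox10 at 0.16 CPM or less. Chondrocyte, bone and tendon markers summed to 550 to 3409 and 757 to 2561 CPM, and macrophage and dendritic markers to 126 to 310 and 107 to 454 CPM. Adipocyte markers summed to 256 to 787 CPM in vehicle males and 94.7 to 274 CPM in PTX males, mostly from the lipase gene Lpl (log2 fold change -1.19 ± 0.44, unadjusted p = 0.0138, adjusted p = 0.468), with the adipokine gene Adipoq at 0.32 CPM or less. The part of these cells in the results was not tested. None of the 10 tested pan-immune, 12 macrophage and dendritic, 8 mast cell or 3 keratinocyte markers had an unadjusted p under 0.05, and of the 5 tested endothelial markers Esam alone did.

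Metalloproteases and their inhibitors were evenly split. Mmp2, a gelatinase that fibroblasts make in quantity, was at 5270, 5310, 5281 and 4888 CPM in vehicle males and 3412, 5715, 1967 and 2748 CPM in PTX males. PTX male 2 lay above all vehicle libraries while the other PTX libraries lay below them (-0.58 ± 0.25, adjusted p = 0.504). Of 22 tested genes, 12 were above and 10 below 0, with a median of 0.04.

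Chemokine genes fell on both sides. Cxcl14, a chemokine made constitutively in skin, was at 640, 434, 608 and 700 CPM in vehicle males and 241, 168, 311 and 199 CPM in PTX males. The groups did not overlap (-1.37 ± 0.33, adjusted p = 0.325), and the vehicle females, at 322 to 441 CPM, lay mostly between them. Cxcl1, which attracts neutrophils, was at 1315, 2442, 3829 and 4061 CPM in vehicle males and 3439, 6654, 10490 and 4776 CPM in PTX males (1.12 ± 0.35, adjusted p = 0.468). Ccl2, which attracts monocytes, was at 857, 1593, 1884 and 2451 CPM and 2229, 2792, 7588 and 3314 CPM (1.23 ± 0.37, adjusted p = 0.468). For both genes PTX male 3 was highest and a single PTX library lay within the vehicle range. Ccl11, the eosinophil attractant eotaxin, was at 1517 to 2959 CPM and 1450 to 4235 CPM (0.47 ± 0.32, adjusted p = 0.866). Cx3cl1, fractalkine, was at 0.153 CPM or less in vehicle males and at 36.9, 161, 0.960 and 2.81 CPM in PTX males. Of 22 tested cytokine and chemokine genes, 16 were above 0 (median 0.44). An unadjusted p under 0.05 was reached by 4 higher genes and by Cxcl14 on the lower side. The shares of all genes at that p were 2.79% higher and 5.28% lower.

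Genes of the NF-kB system and the stress responses gave mostly higher values, and so did general lists. Of 13 tested housekeeping genes, 10 had a log2 fold change above 0, with a median of 0.41. Of 72 tested ribosomal protein genes, 59 were above 0, with a median of 0.37. Nfkbia, the inhibitor that NF-kB itself induces, was at 3680, 2211, 2807 and 2550 CPM in vehicle males and 3180, 5334, 5745 and 3174 CPM in PTX males, overlapping through vehicle male 1 (0.63 ± 0.25, adjusted p = 0.477). Tnfaip3, another feedback inhibitor, was at 338 to 774 CPM and 487 to 1758 CPM (0.71 ± 0.40, adjusted p = 0.754). Of the 15 genes of the list, 11 were above 0, with a median of 0.63, and Nfkbia alone had an unadjusted p under 0.05. Sod2, the mitochondrial superoxide dismutase, was at 175, 199, 276 and 138 CPM in vehicle males and 340, 482, 679 and 400 CPM in PTX males. These did not overlap with each other or with vehicle females at 185 to 230 CPM (1.27 ± 0.38, adjusted p = 0.468). Gpx3, a secreted glutathione peroxidase, was at 503, 260, 440 and 655 CPM in vehicle males and 865, 1368, 1478 and 815 CPM in PTX males (1.28 ± 0.34, adjusted p = 0.413), and vehicle females reached 858 CPM. Of 23 tested oxidative stress and iron genes, 17 were above 0 and 4 had an unadjusted p under 0.05, all higher. Over all genes, 52.3% were above 0 and 2.79% were higher at that p. In either direction it was reached by 68 of 643 genes of 200 to 1000 CPM and 26 of 106 over 1000 CPM.

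Among heat shock genes, 15 of 17 were above 0, with a median of 0.46. The small heat shock protein gene Hspb1 was at 182, 81.0, 74.2 and 50.6 CPM in vehicle males and 213, 332, 239 and 205 CPM in PTX males, without overlap (1.35 ± 0.58, adjusted p = 0.516). Hsp90ab1, a constitutive chaperone, was at 1902 to 2530 CPM and 2126 to 5465 CPM (0.70 ± 0.26, adjusted p = 0.469). Immediate early genes, which respond quickly to many stimuli, showed no common side: 14 of 23 were above 0 with a median of 0.09. Junb was at 3093, 3571, 3670 and 4255 CPM in vehicle males and 4039, 5558, 4951 and 5645 CPM in PTX males (0.47 ± 0.17, adjusted p = 0.469). Fos was at 11120 to 14950 CPM and 9171 to 12910 CPM (-0.28 ± 0.15, adjusted p = 0.725), and Atf3 at 1086 to 2606 CPM and 834 to 1528 CPM (-0.72 ± 0.28, adjusted p = 0.477).

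Of the p53 pathway, Cdkn1a, which encodes the cell cycle inhibitor p21, was at 391, 281, 357 and 506 CPM in vehicle males and 535, 1024, 1037 and 840 CPM in PTX males. The groups did not overlap, though PTX male 1 was close to vehicle male 4, and vehicle females, at 452 to 710 CPM, overlapped PTX males (1.16 ± 0.31, adjusted p = 0.445). Trp53 itself was at 1.22, 66.5, 61.2 and 84.1 CPM in vehicle males and 169, 225, 367 and 204 CPM in PTX males (2.18 ± 0.82, adjusted p = 0.474). Vehicle females, at 70.0 to 92.8 CPM, also lay below every PTX library. Mdm2, the ligase that turns p53 over, averaged 139 CPM in vehicle males and 24.1 CPM in PTX males (-2.53, unadjusted p = 0.0347). Of 22 tested genes, 14 were above 0, with a median of 0.46.

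Tubulins are the target of PTX, and none of the 16 tested tubulin and microtubule genes had an unadjusted p under 0.05. Tubb5, the main beta-tubulin of most tissues, was at 693, 234, 292 and 459 CPM in vehicle males and 544, 744, 826 and 461 CPM in PTX males, with overlap (0.62 ± 0.36, adjusted p = 0.77). Tubb6 was at 412, 394, 558 and 412 CPM in vehicle males and 363, 197, 138 and 335 CPM in PTX males, without overlap (-0.78 ± 0.39, adjusted p = 0.66). These beta-tubulins thus had values on opposite sides, and Tubb3 was too low to be tested. Of 22 mitosis genes, including Mki67, Top2a and Plk1, 21 did not pass the filter on low counts, and the summed level of the 22 was at most 70.1 CPM in vehicle males and 13.1 CPM in PTX males. The tested one, Cdc20, averaged 9.57 CPM in vehicle males and 0.0334 CPM in PTX males, with overlap (unadjusted p = 0.0259, adjusted p = 0.5).

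The remaining genes with low p-values and PTX higher were of moderate level. Spon1, an adhesive matrix protein that guides axons, was at 588, 707, 385 and 134 CPM in vehicle males and 831, 1784, 808 and 1278 CPM in PTX males (1.37 ± 0.41, adjusted p = 0.468). Vehicle females, at 774 to 1281 CPM, lay within the PTX range. Nrp2, a receptor for semaphorins and VEGF, was at 30.6, 59.5, 37.1 and 29.7 CPM and 159, 553, 157 and 88.2 CPM (2.61 ± 0.74, adjusted p = 0.468). Ptk7, a pseudokinase of planar cell polarity, was at 0.153, 17.5, 9.32 and 14.3 CPM and 97.6, 1107, 102 and 129 CPM, and Slc20a1, a phosphate transporter, was at 0.703 to 4.40 CPM and 29.8 to 321 CPM. PTX male 2, the library with the fewest genes over 10 counts, was the highest in all 4 genes. Sdc1, the heparan sulfate proteoglycan syndecan-1, was at 7.56 to 65.7 CPM in vehicle males, 167 to 411 CPM in PTX males and 11.4 to 104 CPM in vehicle females (2.76 ± 0.84, adjusted p = 0.468). Amot and Stac2 were at 0.371 CPM or less in every vehicle male, and in PTX males at 0.0800 to 84.4 and 9.84 to 120 CPM.

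On the lower side, a group of genes was near 0 in every PTX library. Golm1, a Golgi membrane protein gene, was at 243, 35.8, 28.3 and 72.0 CPM in vehicle males and at 0.106, 0.0987, 0.720 and 0.267 CPM in PTX males. Xpnpep2, an aminopeptidase gene, was at 25.1 to 78.2 CPM in vehicle males and 0.267 CPM or less in PTX males. Klhl12, an adaptor of a ubiquitin ligase that acts in procollagen export, was at 22.4 to 189 CPM and 0.240 CPM or less. The pattern was the same for Fam198a (11.8 to 88.2 against 0.320 CPM or less). Ngfr, the low-affinity neurotrophin receptor, was at 12.7 to 45.6 CPM in vehicle males and 0.160 CPM or less in PTX males, but also at 0.0562 CPM in 1 vehicle female library. Adjusted p was 0.106 to 0.209 for Golm1, Xpnpep2, Klhl12 and Fam198a and 0.468 for Ngfr. No fold change is given for these genes, because with so few counts the fitted value depends on the count added to avoid zeros. The arylsulfatase gene Arsk was at 17.6 to 184 CPM in vehicle males and at 0.476, 0.494, 0.560 and 3.27 CPM in PTX males (-6.15 ± 1.40, adjusted p = 0.228).

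Prostaglandin, complement and interferon genes gave few low p-values. Pla2g4a, the phospholipase that releases arachidonic acid, was at 0.611, 21.5, 11 and 2.30 CPM in vehicle males and 1.90, 250, 117 and 32.3 CPM in PTX males, with overlap (3.50 ± 1.40, adjusted p = 0.486). It was the only one of 13 tested prostaglandin and leukotriene genes with an unadjusted p under 0.05, although their summed level was 670 to 892 CPM in vehicle males and 989 to 1478 CPM in PTX males, without overlap. None of 17 complement genes reached that p. The median of the complement list was -0.0021, and 0.16 under RLE scaling. Of 17 tested type I interferon genes Isg15 alone reached it, averaging 0.0631 CPM in vehicle males and 10.3 CPM in PTX males. Of 19 neurotrophic and axon guidance genes, 8 were above 0 and 11 below (median -0.17).

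**Figure D5:**
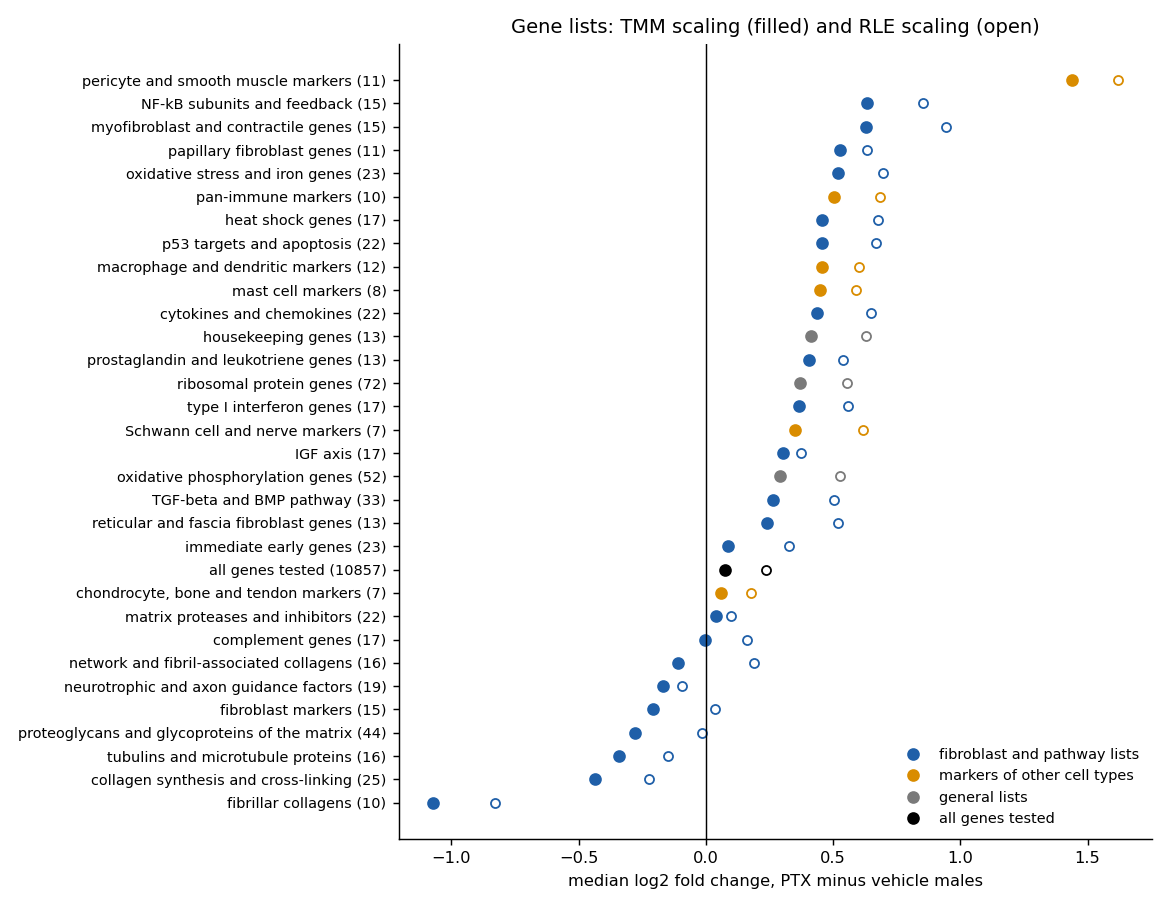
Median log2 fold change of each gene list with at least 7 tested genes (number tested in brackets), PTX against vehicle males, under TMM (filled) and RLE scaling (open), coloured by kind of list. Pericyte and smooth muscle markers are highest (1.44), fibrillar collagens lowest (-1.07), and the median of all genes moves from 0.08 to 0.24 between scalings.

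PTX males were also compared with vehicle females, which differ from them in sex as well as treatment and share the PTX libraries with the comparison above. In this comparison 3 of 10857 genes passed (0.0276%), Col3a1 and the sex-linked genes Xist and Eif2s3y. An unadjusted p under 0.05 was reached by 7.19% of genes, and 6.34% did not overlap, 2.64% with PTX higher and 3.69% with PTX lower. Col3a1 fell by 1.70 ± 0.26 on the log2 scale against vehicle females (adjusted p = 0.0202). It lost that call without vehicle female 2 (adjusted p = 0.0527) or 4 (0.0942) and without PTX male 2 (0.0909), 3 (0.0835) or 4 (0.133). Igfbp3 was higher in all 4 PTX males than in all 4 vehicle females, with a log2 fold change of 1.62 ± 0.38 and an adjusted p of 0.358. Col1a2 and Col1a1 did not overlap either, with vehicle females at 7667 to 8745 and 8656 to 9244 CPM, log2 fold changes of -1.07 ± 0.24 and -1.22 ± 0.28, and adjusted p of 0.286 and 0.358. Sparc had a log2 fold change of -0.40 ± 0.19 (adjusted p = 0.701). Inflammatory genes were further apart here: Cxcl1 at 1539 to 3285 CPM, Ccl2 at 847 to 1871 CPM and Nfkbia at 1710 to 2902 CPM in vehicle females lay below every PTX library, with log2 fold changes of 1.33, 1.42 and 1.04 and adjusted p of 0.385 to 0.454. Pan-immune markers, at a sum of 9.38 to 24.3 CPM in vehicle females, were also below the PTX libraries, in 6 of 10 genes without overlap, and their part in these values was not tested.

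The PTX effect in fibroblasts was set against that in immune cells, sorted by CD45 from wild-type mice, and in keratinocytes, sorted by tdTomato under K5-cre-ER, each as a difference of log2 fold changes in a joint fit. Against immune cells 468 of 13329 genes differed (3.51%), and against keratinocytes 433 of 13084 (3.31%). Igfbp3 differed from immune cells by 8.02 ± 0.86 (adjusted p = 2.19e-06). In immune libraries it was at 25.3 ± 15.4 CPM (SD, n = 4) in vehicle males and 0.765 ± 0.299 CPM (n = 4) in PTX males, and Col1a2 was there at 667 ± 282 and 149 ± 94.8 CPM, so a fibroblast gene was also lower in the immune libraries of PTX males, and the part of fibroblast RNA in this difference was not tested. Against keratinocytes the difference for Igfbp3 was 1.66 ± 1.53 (adjusted p = 0.693), with keratinocyte levels of 0.447 to 232 CPM in 3 vehicle males and 23.7 to 494 CPM in 4 PTX males. Without vehicle male keratinocyte library 3 that difference was -3.58.

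For the type I and III collagen chains no difference from immune cells passed the test. For Col3a1 it was 0.75 ± 0.77 (adjusted p = 0.762), for Col1a2 1.0 ± 0.63 (0.471) and for Col1a1 1.07 ± 0.83 (0.619). Other collagen genes did differ from immune cells, where their levels in PTX males were low: Col5a2 by 6.42 ± 0.85 (adjusted p = 2.15e-05), Col6a2 by 5.24 ± 0.80 (0.000125), Col6a1 by 4.0 ± 0.76 (0.00184) and Col5a3 by 5.26 ± 1.5 (0.0460). The effects on the type I and III chains differed from those in keratinocytes. Col3a1 was at 1.11 ± 0.33 CPM in vehicle male keratinocytes (n = 3) and at 2092 ± 415 CPM in those of PTX males (n = 4), a difference of -12.5 ± 1.82 from fibroblasts (adjusted p = 0.000193). For Col1a2 the keratinocyte levels were 1.11 ± 0.21 and 2012 ± 799 CPM, and the difference was -12.0 ± 0.77 (adjusted p = 4.27e-12). Sparc was at 383 ± 174 and 2299 ± 349 CPM, with a difference of -3.66 ± 0.57 (adjusted p = 7.57e-05). These collagen levels stand in libraries sorted as keratinocytes. There the keratinocyte marker Krt14 averaged 11040 CPM in vehicle males and 2754 CPM in PTX males. Lyz2, at 7699 CPM in vehicle male immune libraries, averaged 18.6 and 780.5 CPM in the same keratinocyte groups. How much of these levels comes from RNA of fibroblasts or other cells was not tested.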

How the data were processed

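The labels' protocols describe poly(A) libraries (TruSeq stranded mRNA) of Col1a2-lineage hind paw skin cells, read from 1 end over 50 bases. The submitters' processing notes name bcl2fastq for demultiplexing, TopHat2 for alignment to mm9 and HTSeq for counting. Their versions, the gene annotation and HTSeq's strand option: not given in the sources used here. What the authors deposited is 1 table per library of unnormalized integer read counts for each symbol. Reads with several equally good places were not counted, so genes with near-identical copies are uncertain. HTSeq's summary lines (no feature, ambiguous and not unique) entered neither library sizes nor tests.

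The 12 fibroblast libraries were fitted together with edgeR 4.0.16 under R 4.3.3: genes were kept by filterByExpr, libraries scaled by TMM, and a robust quasi-likelihood model with 1 coefficient per group was tested two-sided with the F-test, adjusting p over all genes tested by Benjamini-Hochberg at 0.05. The SE of an edgeR fold change was its absolute log2 value divided by the square root of the F statistic, not a separate estimate. Differences between PTX effects came from joint fits with 24 (immune cells) and 23 (keratinocytes) libraries, whose own TMM scaling gives slightly other CPM values. Every gene that passed was named, then per direction the 12 lowest p-values among genes whose groups did not overlap and whose higher group averaged 20 CPM or more, and per list the 4 most abundant members and the 2 with the lowest p. Which of these the text describes was settled after their values were seen, and some named genes are not reported here. The biological coefficient of variation was 1.41. Alternatives used RLE scaling, no filter, DESeq2 1.42.0, limma 3.58.1 with voom quality weights, a replicate block, other sets of libraries and each library left out. Fits limited to abundant genes and the fit without 2 libraries were added after seeing the data. The members and the 38 gene lists (803 of 813 entries found) were chosen with earlier results of these data known. Within each group, all pairs of libraries differed by more than counting noise. The scripts' tests were tested on simulated data with less spread than the coefficient of variation given above. That simulation therefore cannot show how the tests fare at the spread of these libraries. Figures were drawn with matplotlib 3.10.9.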

Additional observations from a re-analysis of the deposited data

Results flagged for a closer look

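Libraries far from the other 3 of their group were sought by Dixon's 95% criterion on the gap to the nearest library. They were found in 15 of 132 groups of 4 values checked, 11.4%. The criterion's own rate of about 1 in 20 assumes independent values with a normal spread. The values checked were library measures and CPM of genes picked with their values known, all from the same 8 libraries. The share found therefore cannot be set against that rate. Of the 15, 6 were in vehicle male 1 and 4 in PTX male 2, the libraries with the fewest genes over 10 counts in their groups.

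In vehicle male 1, Dcn was at 37310 CPM against 23560 to 25450 CPM in the other vehicle males. P4hb was at 1960 CPM there against 892 to 1069 CPM, and Id3, the inhibitor of basic helix-loop-helix factors, at 2073 CPM against 1036 to 1183 CPM. Klhl12 was at 189 CPM against 22.4 to 33.5 CPM. Mcam and Amot were at 0.0764 CPM each, against 0 in the others, which is too few counts to mean a level.

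PTX male 2 had Ptk7 at 1107 CPM against 97.6 to 129 CPM in the other PTX males, and Nrp2 at 553 CPM against 88.2 to 159 CPM. In the same library Igfbp5 was at 1361 CPM against 422 to 554 CPM and Sdc1 at 411 CPM against 167 to 206 CPM. PTX male 4 had Igfbp7 at 707 CPM against 1642 to 1697 CPM, and Arsk at 3.27 CPM against 0.476 to 0.560 CPM. Among vehicle males, Mmp2 was lowest in library 4 at 4888 CPM (the others 5270 to 5310 CPM), Hsp90ab1 was highest there at 2530 CPM (the others 1902 to 1915 CPM), and Tubb6 was highest in library 3 at 558 CPM (the others 394 to 412 CPM).

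The PTX effect was compared between fibroblasts and both other populations for 5 genes chosen with their values known, and 5 of these 10 differences passed the interaction test of edgeR. Over all named genes with a value, 44 of 201 passed against immune cells (42 above and 2 below 0) and 48 of 202 against keratinocytes (4 above and 44 below 0). Dcn averaged 2065 CPM in vehicle males and 159 CPM in PTX males in immune libraries, and 333 and 5556 CPM in keratinocyte libraries. The part of fibroblast RNA in these differences was not tested. For Igfbp3 the difference from immune cells was 8.02 ± 0.86 (SE) on the log2 scale, with an adjusted p of 2.19e-06, and every PTX fibroblast library was above every vehicle male one. Against keratinocytes the differences were -12.5 ± 1.82 for Col3a1 (adjusted p = 0.000193), -12.1 ± 1.91 for Col1a1 (adjusted p = 0.000437), -12.0 ± 0.77 for Col1a2 (adjusted p = 4.27e-12) and -3.66 ± 0.57 for Sparc (adjusted p = 7.57e-05).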

How the results depend on the processing

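The count of genes that passed in PTX against vehicle males was 2 and depended on the test: 403 with DESeq2 (145 higher, 258 lower), 0 with limma's voom quality weights (656 at an unadjusted p under 0.05), 4 with no filter, and 1 with RLE scaling, with the 8 male libraries alone or with all vehicle animals as controls. Among genes with a mean of at least 20, 50 or 100 CPM it was 1 each, and at 200 CPM it was 6, with Igfbp3 higher and Col3a1, Sparc, Adamts2, Tgfbr2 and Cxcl14 lower. Without vehicle male 1 and PTX male 2 together it was 0 (954 at an unadjusted p under 0.05). Leaving out 1 library gave 0 to 4: 0 without vehicle male 1 (985 at an unadjusted p under 0.05) or 3 (1038), 1 without vehicle male 2 or PTX male 3 or 4, 3 without vehicle male 4 and 4 without PTX male 1. Against vehicle females the 3 became 240 with DESeq2, 0 with voom (850 at an unadjusted p under 0.05) and 1 to 3 with a library left out. The 468 differences from immune cells became 1758 with DESeq2 and 299 to 527 with a library left out (299 without vehicle male fibroblast 4), and the 433 from keratinocytes became 2064 and 293 to 409.

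Replicate numbers did not pair the samples: deviations of same-numbered vehicle and PTX males correlated at -0.0445 to 0.0187, and 1 of 4 PTX libraries correlated best with its own number. With the replicate number as a block, 3, 2, 268 and 311 genes passed in these 4 comparisons.

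Col3a1 also lost its call in PTX against vehicle males with voom (adjusted p = 0.853), with no scaling (0.161), without the 2 libraries named above (0.391) and at 20, 50 or 100 CPM (0.0827, 0.166 and 0.139), and against vehicle females with RLE (0.159), DESeq2 (0.0941) and voom (0.743). Dcn, at -0.0255, turned to 0.173 with RLE and with DESeq2, to 0.151 with all vehicle animals, to 0.174 without the 2 libraries, and ranged from -0.276 to 0.148 with 1 left out (0.085, 0.00757 and 0.136 without PTX male 1, 2 and 4). Col5a2, at 0.0035, turned to -0.0391 with no filter, -0.292 with the block, -0.738 with voom, -0.0275 with the 8 libraries, -0.0818, -0.15, -0.195 and -0.132 at 20, 50, 100 and 200 CPM, -0.85 without the 2 libraries, -0.14 with no scaling, and ranged from -0.823 to 0.214 with 1 left out (-0.00614 without vehicle male 1). The Igfbp3 difference from keratinocytes, 1.66, ranged from -3.58 to 2.76. The causes were not tested. These checks covered genes picked for the text with their values known, counting each gene in each alternative setting of the 4 comparisons. Of these values, 1525 kept direction and either kept their side of the threshold or had no adjusted p. A further 28 newly passed, 28 no longer passed and 22 changed sign.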

Other observations

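Genes of general metabolism were mostly on the higher side in PTX males. Of 72 tested ribosomal protein genes, 59 had a log2 fold change above 0 and none had an unadjusted p under 0.05, with a median of 0.37 against 0.08 for all genes tested. Of 52 oxidative phosphorylation genes, 38 were above 0, with a median of 0.29. Uqcrc2, a core subunit of respiratory complex III, was at 20.3, 26.1, 8.02 and 34.2 CPM in vehicle males and 61.9, 187, 117 and 102 CPM in PTX males (log2 fold change 2.40 ± 0.88, adjusted p = 0.468 in edgeR's test).

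Genes of the papillary dermis, the layer under the epidermis, had a median of 0.53 over 11 tested genes, 7 above and 4 below 0. The median of the housekeeping genes was 0.41. Of the 11, Sdc1 and Crabp1 had an unadjusted p under 0.05, both higher, where 2.79% of all genes were higher at that p. Genes of the reticular layer and fascia had a median of 0.24 over 13, with Gpx3 higher and Cd34 lower at that p. Of 7 tested chondrocyte, bone and tendon markers, 4 had a log2 fold change above 0 and 3 below. Their median was 0.06 against 0.08 for all genes tested, and none had an unadjusted p under 0.05. Among them, Tnmd averaged 51.4 CPM in vehicle males and 220 CPM in PTX males (unadjusted p = 0.082 in edgeR's test) and Sox9 98.3 and 124 CPM.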
